A study of Mus musculus with 6 samples.

Results

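Of the 10 genes described here, most encode parts of the heart muscle sarcomere, several in forms typical of the atria. Ryr2 encodes the calcium release channel and Dsg2 an adhesion protein of desmosomes. They are Myh6, Myh7, Actc1, Tnnt2, Tnni3, Myl4, Myl7, Ryr2, Ttn and Dsg2. They were chosen by name, and their rows were found by Ensembl identifier among the 52636 genes of a bulk RNA-seq count table of mouse thoracic aorta. All 10 had counts, and all 10 were among the 17537 genes that received an adjusted p-value. The table held 4 libraries from WT mice and 2 from KO mice, each 12 weeks of age and of strain C57BL/6J per the labels. WT mice had normal receptor genes, carried no Cre and were left untreated. KO mice (Tgfbr1/2iSMCKO) carried loxP-flanked Tgfbr1 and Tgfbr2, the Myh11-CreERT2 transgene, whose Cre is made in smooth muscle cells (SMCs), and the mT/mG reporter. Tamoxifen, which activates this Cre, was injected into them at 11 weeks of age (5 daily doses of 2 mg). Genotype at all of these loci, transgene and tamoxifen therefore changed together and cannot be told apart. Libraries are named WT-1 to WT-4, KO-1 and KO-2 after the number in their column codes, which give the group but no sample title.

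Heart muscle shortens when myosin heavy chains of the thick filament, each with light chains, pull on thin filaments of cardiac actin. The troponin complex on the thin filament makes this pull depend on calcium, which leaves the sarcoplasmic reticulum through the ryanodine receptor. Atrial and ventricular muscle use different forms of the myosin chains, and in the adult mouse heart the heavy chain Myh6 prevails in both. In the mouse, striated cardiac muscle cells also line the pulmonary veins and the parts of the caval veins near the heart, whereas the wall of the aorta itself is built of smooth muscle. Bulk RNA cannot tell apart a different number of cells of a type from a different amount of RNA per cell.

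Total counts ran from 19650983 to 28860598 per library. The tissue markers of smooth muscle, Acta2 and Myh11, stood at 372417 to 445616 and 232343 to 301065 normalised counts in WT, at 328092 and 302515 in KO-1 and at 381467 and 359715 in KO-2. Mitochondrial genes took 11.7% of the counts in KO-2, against 2.62% to 4.44% in WT and 3.38% in KO-1. Gm42418, a gene that overlaps ribosomal RNA, took 1.89% to 4.67% in WT, 0.692% in KO-1 and 0.445% in KO-2. Counts over the whole of Tgfbr1 and Tgfbr2, which include exons outside the deleted parts, overlapped between the groups and do not check the genotype. Tgfbr1 had 3858 to 5420 normalised counts in WT, 5780 in KO-1 and 4568 in KO-2. Tgfbr2 had 5327 to 7042, 5784 and 5937. The labels do not say that each library came from a different mouse, so p-values measure the spread between these libraries, which may be technical.

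To show what lies in front of members whose levels moved together in KO-1, the stretch from 250 to 36 bases before the RefSeq start is printed for Actc1, Myl7, Ttn and Myh6 (GRCm38.p6, minus strand, 5′ to 3′). Capitals mark a CArG box in Actc1 and Myl7, the 10-base element bound by serum response factor in muscle genes, and a MEF2 site in Ttn, the element bound by the MEF2 factors. The stretch in front of Myh6 held neither, and nor did those of the other members with a window.
Actc1 (chr2:114052911-114053125): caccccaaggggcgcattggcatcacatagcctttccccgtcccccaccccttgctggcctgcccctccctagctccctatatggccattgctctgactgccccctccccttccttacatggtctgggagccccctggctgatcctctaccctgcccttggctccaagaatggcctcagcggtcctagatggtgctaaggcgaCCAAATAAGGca
Myl7 (chr11:5898818-5899032): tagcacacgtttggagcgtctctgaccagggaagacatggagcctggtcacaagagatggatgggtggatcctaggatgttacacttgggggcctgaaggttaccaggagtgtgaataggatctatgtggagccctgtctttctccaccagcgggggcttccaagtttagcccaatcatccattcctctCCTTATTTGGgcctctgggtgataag
Ttn (chr2:76982583-76982797): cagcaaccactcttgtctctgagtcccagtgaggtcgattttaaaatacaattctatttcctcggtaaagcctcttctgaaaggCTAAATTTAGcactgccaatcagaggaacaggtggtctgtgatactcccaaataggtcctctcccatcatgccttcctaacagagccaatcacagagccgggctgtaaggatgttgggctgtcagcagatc
Myh6 (chr14:54966643-54966857): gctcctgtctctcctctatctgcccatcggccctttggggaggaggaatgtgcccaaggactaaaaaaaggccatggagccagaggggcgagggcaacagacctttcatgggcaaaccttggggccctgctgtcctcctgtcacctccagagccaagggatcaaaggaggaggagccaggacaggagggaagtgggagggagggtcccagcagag

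Of the 9 members with a RefSeq window of 300 bases around the start, 2 held a CArG box and 1 a MEF2 site on either strand. Over all 32851 windows the shares were 1.63% and 3.19%. The sequence CATTCC, the core of the TEAD motif, was in 5 of the 9 windows and in 14.7% of all. GATAA, a core of the GATA motif, was in 3 and in 25.4%. These are matches of letters, and no binding was measured. For Actc1, Tnni3 and Myh6 the start in the GENCODE M21 gene models lay 673, 1701 and 320 bases from the RefSeq start used here.

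In KO-1 all 10 members stood above every WT library, and 9 of them by more than 2-fold over the highest WT library. The exception was Ryr2. Of all genes tested, 2.73% were more than 2-fold above the highest WT library in KO-1. In KO-2 only 3 members did the same, Myh7, Tnnt2 and Dsg2, against 5.91% of all genes tested. Of the other members in KO-2, Actc1 and Tnni3 were above every WT library by less than 2-fold, Myh6, Myl7 and Ttn lay within the WT range, and Myl4 and Ryr2 lay below it. The members together took 0.148% of the counts in KO-1 (95% Wilson interval 0.147% to 0.15%), 0.0185% in KO-2 (0.0179% to 0.0191%) and 0.0135% to 0.0191% in WT. These intervals cover counting error only.

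**Figure D1:**
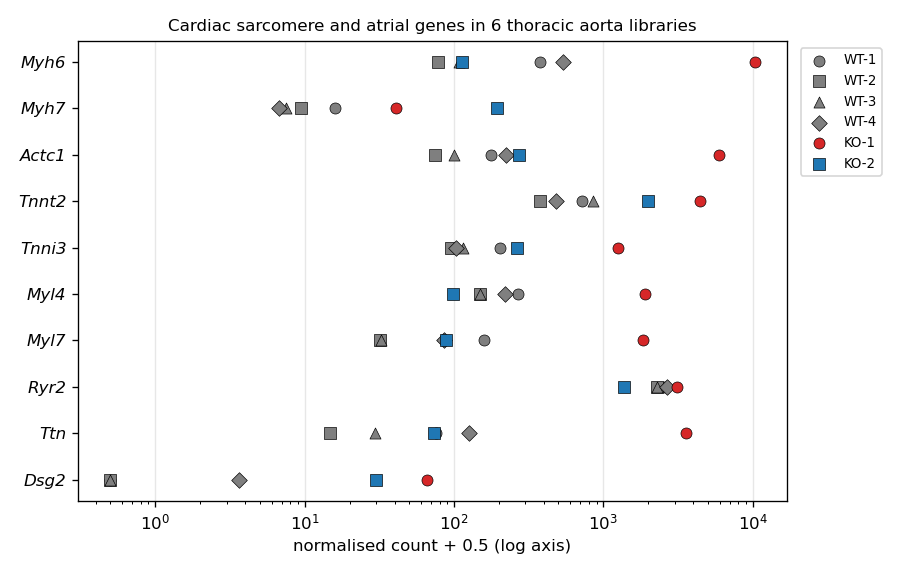
Normalised counts plus 0.5 (log axis) of the 10 members in each of the 6 libraries; 1 point is 1 library, grey for WT, red for KO-1 and blue for KO-2. KO-1 lies right of all WT points in every row, whereas KO-2 lies among or left of them for Myh6, Myl4, Myl7, Ryr2 and Ttn and is the highest library for Myh7.

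Across both KO libraries together, DESeq2 called 7 of the 10 members, all higher in KO (a change over 2-fold that passed an adjusted p-value of 0.05). Over all genes tested this rule called 5.49% in either direction. The adjusted p-value alone passed the same number of members, 7, against 10.1% of all genes. For 5 members, Myh7, Actc1, Tnnt2, Tnni3 and Dsg2, both KO libraries lay above every WT library, which held for 17.6% of all genes tested. When each KO library was set alone against WT, its spread being taken from WT, KO-1 gave 7 calls (Myh6, Actc1, Tnnt2, Tnni3, Myl4, Myl7 and Ttn, background 4.01%) and KO-2 gave 2 (Myh7 and Tnnt2, background 7.89%). Tnnt2 was thus the member called in both. Dsg2 had no adjusted p-value in the fit of KO-2 alone, so it was not tested there. Without KO-1, 2 members were called, and leaving out WT-2, which was the lowest WT library for Myh6, Actc1, Tnnt2, Tnni3, Myl7 and Ttn, left 4.

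Myh6 (chromosome 14, 54941921 to 54966927, minus strand in GRCm38) encodes the alpha myosin heavy chain, the fast motor of the heart. Its normalised counts were 378 in WT-1, 78.1 in WT-2, 108 in WT-3 and 539 in WT-4, and 10313 in KO-1 and 113 in KO-2. KO-1 was 19.1-fold above the highest WT library and 90.8-fold above KO-2, which lay within the WT range. With both KO libraries the log2 fold change was 4.24 (SE 1.59) and the DESeq2 adjusted p-value 0.0675 (0.101 by edgeR), so Myh6 was not called. KO-1 alone gave 5.23 (adjusted p-value 0.00171) and KO-2 alone -1.28 (0.614), which is the opposite sign. Over 13 alternative fits the adjusted p-value ran up to 1, reached where DESeq2 tested against a 2-fold change itself, which is a stricter question.

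Myh7 (chromosome 14, 54970684 to 54994626, minus strand) is the neighbour of Myh6 and encodes the beta heavy chain of the fetal ventricle and of slow skeletal muscle. It had 15.4, 8.98, 6.99 and 6.26 normalised counts in WT-1 to WT-4, 40.2 in KO-1 and 194 in KO-2. Both KO libraries were above all WT libraries, and here the order of the KO libraries was turned, with KO-2 4.78-fold above KO-1. KO-2 exceeded the highest WT library 12.3-fold and KO-1 2.56-fold. Over both, the log2 fold change was 3.64 (SE 0.69, DESeq2 adjusted p-value 7.55e-06). KO-1 alone did not pass (2.11, adjusted p-value 0.187), KO-2 alone did (4.38, 1.71e-08), and these are the ends of the range over the alternatives. Both heavy chains are close paralogs whose reads the counting may divide between them, so the counts of the lower of the pair in a library are uncertain. The antisense gene Mhrt overlaps Myh7 and had 0 to 5 counts in WT, 44 in KO-1 and 8 in KO-2. The strand setting of the counting is not given in the sources used here.

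The share of Myh6 among the counts of both heavy chains was 96.1%, 89.7%, 93.9% and 98.9% in WT-1 to WT-4. It was 99.6% in KO-1 (exact 95% interval 99.5% to 99.7%, 13591 against 53 counts) and 36.8% in KO-2 (30.8% to 43.1%, 92 against 158 counts). The interval of KO-2 lay below those of the other 5 libraries, of which the lowest began at 81.9% (WT-2).

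Myl7 and Myl4 encode the atrial regulatory and atrial essential light chains. Myl7 (chromosome 11, 5896637 to 5898782, minus strand), with its CArG box printed above, had 159, 31.4, 32.0 and 84.6 normalised counts in WT-1 to WT-4, 1851 in KO-1 and 87.3 in KO-2. KO-1 was 11.6-fold above the highest WT library, while KO-2 lay inside the WT range. The log2 fold change over both was 3.66 (SE 1.304). Its DESeq2 adjusted p-value of 0.04998 was just inside the threshold, edgeR gave 0.0773, and without WT-2, WT-3, WT-4 or KO-1 it did not pass. Over all alternatives the value was lowest, 7.38e-05, with the replicate number as a block, where WT-3 and WT-4 each stood alone. Its highest value, 1, came from the test against a 2-fold change.

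Myl4 (chromosome 11, 104550663 to 104595753, plus strand) had 269, 149, 149 and 218 normalised counts in WT-1 to WT-4. It had 1902 in KO-1, 7.05-fold above the highest WT library, and 98.3 in KO-2, below the lowest. The log2 fold change was 2.35 (SE 1.09, DESeq2 adjusted p-value 0.173) with both KO libraries, 3.29 (6.49e-17) with KO-1 alone and -0.99 (0.14) with KO-2 alone. Its adjusted p-value over the alternatives ran up to 1, again in the test against a 2-fold change.

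The ventricular partners of these light chains are Myl2 and Myl3, which slow skeletal muscle also uses. Myl2 had 0 counts in all 4 WT libraries, 26 in KO-1 and 307 in KO-2. Against a floor of 3 counts in a WT library, Myl2 was at least 5.99-fold higher in KO-1 and at least 115-fold higher in KO-2. Myl3 had 3, 0, 5 and 0 counts in WT-1 to WT-4, 5 in KO-1 and 43 in KO-2. Myl7 made up 100% of the counts of Myl7 and Myl2 in each WT library, with a lower exact limit of 89.1% or more, 98.9% in KO-1 and 18.8% in KO-2 (14.97% to 23.1%). Myl4 made up 96.8% to 100% of Myl4 and Myl3 in WT, 99.8% in KO-1 and 65.0% in KO-2 (55.9% to 73.4%). In all 3 pairs the interval of KO-2 lay below those of the other 5 libraries, and all rest on few counts, 123 to 378 for both genes of a pair in KO-2.

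**Figure D2:**
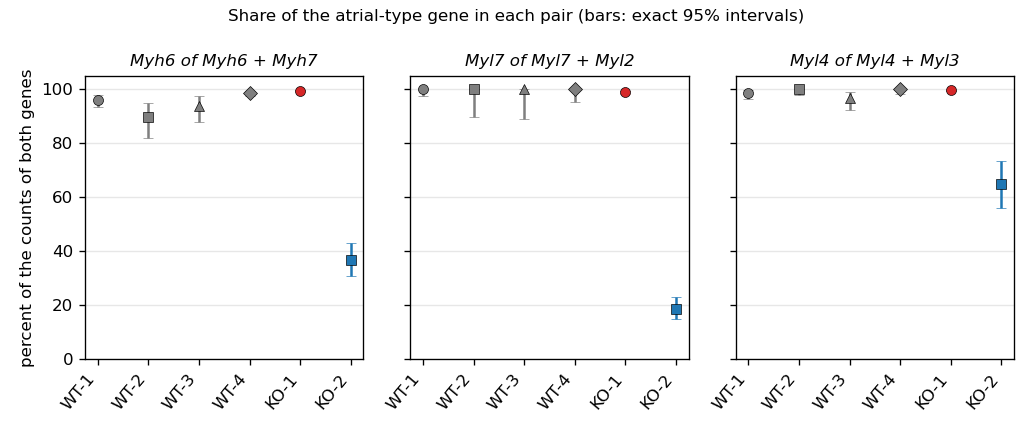
Percent of the counts of a gene pair that fell on its first gene in each library, with exact 95% intervals that cover counting error only. The first genes are the heavy chain Myh6 (with Myh7) and the atrial light chains Myl7 (with Myl2) and Myl4 (with Myl3). Myh6, named atrial-type in the drawn title, prevails in both atria and ventricles of the adult mouse. Its panel therefore does not set the chambers apart. WT and KO-1 points lie at 89.7% or more in all 3 panels, and KO-2 lies at 36.8%, 18.8% and 65.0%.

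Actc1 (chromosome 2, 114047282 to 114053548, minus strand) encodes cardiac alpha-actin, the backbone of the thin filament. It had 176, 74.5, 98.9 and 223 normalised counts in WT-1 to WT-4, 5951 in KO-1 and 270.4 in KO-2. Both KO libraries were above all WT libraries, KO-1 by 26.6-fold over the highest and KO-2 by 1.21-fold. The log2 fold change was 4.44 (SE 1.18, DESeq2 adjusted p-value 0.00388, range over the alternatives 3.82e-10 to 0.361), and KO-2 alone did not pass (0.92, adjusted p-value 0.337). Actc1 shares much of its coding sequence with the smooth muscle actin Acta2, whose normalised counts were the lowest of the 6 libraries in KO-1, and with skeletal Acta1, which had 3 to 12 counts in every library. The gene A530058N18Rik overlaps Actc1 on the other strand and had 0 counts in WT, 17 in KO-1 and 21 in KO-2.

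Tnnt2 (chromosome 1, 135836354 to 135852260, plus strand) encodes cardiac troponin T, which anchors troponin to tropomyosin. It had 714, 376, 849 and 482 normalised counts in WT-1 to WT-4, 4445 in KO-1 and 1975 in KO-2. Both KO libraries were clear of the WT range, 5.23-fold and 2.33-fold above its top. Its log2 fold change was 2.41 (SE 0.35, DESeq2 adjusted p-value 1.12e-09). Tnnt2 was the member whose adjusted p-value passed in all 13 alternative fits, with a highest value of 0.0156 by edgeR.

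Tnni3 (chromosome 7, 4518305 to 4524229, minus strand) encodes cardiac troponin I, the inhibitory subunit. It had 203, 94.3, 115 and 103 normalised counts in WT-1 to WT-4, 1251 in KO-1 and 264 in KO-2, so that both KO libraries lay above WT, KO-1 by 6.14-fold over the highest and KO-2 by less than 2-fold. Tnni3 had a log2 fold change of 2.56 (SE 0.48, DESeq2 adjusted p-value 6.51e-06, range over the alternatives 2.30e-12 to 0.156). KO-2 alone did not pass (1.04, adjusted p-value 0.156), and neither did both KO libraries without WT-2 (2.43, 0.0574). The gene Dnaaf3 overlaps Tnni3 on the same strand and had 4 to 54 counts in WT, 66 in KO-1 and 45 in KO-2.

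Ttn (chromosome 2, 76703980 to 76982547, minus strand) encodes titin, the spring that spans the sarcomere from Z-disc to M-line. It had 75.8, 14.4, 29.0 and 125 normalised counts in WT-1 to WT-4, 3588 in KO-1 and 72.5 in KO-2. KO-1 was 28.5-fold above the highest WT library and KO-2 was within the WT range. For Ttn the log2 fold change was 4.91 (SE 1.51, DESeq2 adjusted p-value 0.0167). By edgeR the adjusted p-value was 0.0571, without WT-2 0.0605, without WT-3 0.0587 and without KO-1 0.92 (lowest over all alternatives 0.000313), so Ttn was called only where KO-1 was in the fit, and not in all such fits.

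Ryr2 (chromosome 13, 11553102 to 12106945, minus strand) encodes the calcium release channel of heart muscle, which smooth muscle also makes. It behaved unlike the other members. It had 2542, 2291, 2295 and 2667 normalised counts in WT-1 to WT-4, with the smallest relative spread of all members (mean 2449 ± 187, SD, n = 4). KO-1 was at 3100, 1.16-fold above the highest WT library, and KO-2 at 1368, below the lowest. The log2 fold change over both was -0.13 (SE 0.28, DESeq2 adjusted p-value 0.854). KO-1 alone gave 0.35 (0.284) and KO-2 alone gave -0.84 (0.000144), under 2-fold and therefore not called (range over the alternatives 0.000144 to 1).

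Dsg2 (chromosome 18, 20558074 to 20604521, plus strand) encodes a desmoglein, an adhesion protein of the desmosomes that hold heart muscle cells, and epithelial cells, together. It had 0 counts in WT-1, WT-2 and WT-3 and 3 in WT-4, against 86 in KO-1 and 24 in KO-2. In normalised counts these were 3.13 in WT-4, 65.3 in KO-1 and 29.5 in KO-2. Set against the 3 counts over all WT libraries, the ratio was 86.6 for KO-1 (exact 95% counting interval 28.7 to 428) and 39.2 for KO-2 (11.9 to 203). The DESeq2 adjusted p-value was 6.58e-05 with both KO libraries (lowest over the alternatives 5.17e-06), and edgeR gave 0.0185. KO-1 alone gave a log2 fold change of 6.39 (SE 4.44) and did not pass. KO-2 alone gave 5.26 (SE 2.33) with no adjusted p-value, so Dsg2 was not tested there. Its desmosomal partner Dsc2 was also called, with 3.13 to 11.7 normalised counts in WT, 79.7 in KO-1 and 33.2 in KO-2. Since desmogleins are made by epithelia too, the mesothelial list was set beside it. Its summed level was 834 to 1127 normalised counts in WT, 1911 in KO-1 and 4382 in KO-2. DESeq2 called 8 of its 11 genes higher, among them Msln, Upk3b, Wt1 and Krt19, and 605 of all 17537 genes tested. Msln had 65.8 to 91.2 in WT, 237 in KO-1 and 327 in KO-2. The part of mesothelial cells in the Dsg2 counts was not tested.

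**Figure D3:**
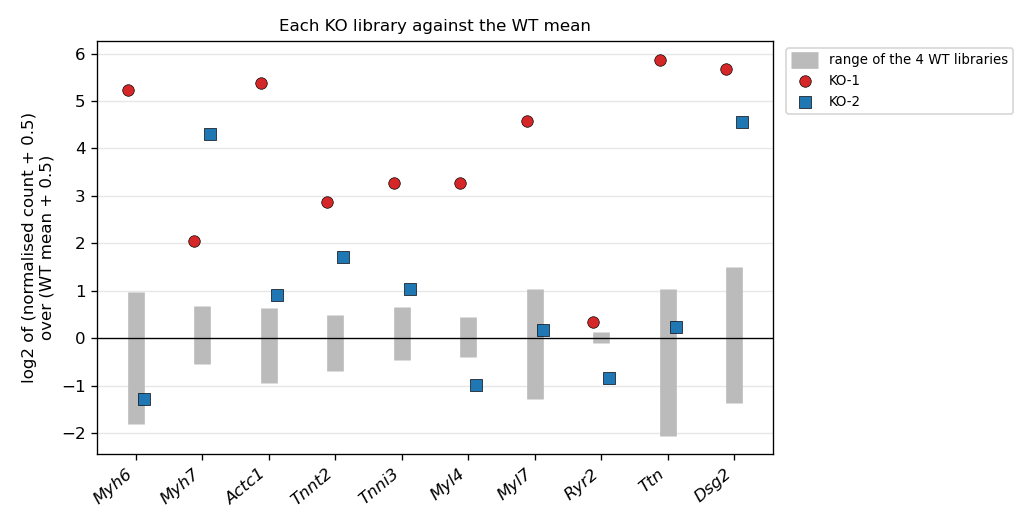
Log2 ratio of the normalised count plus 0.5 in KO-1 (red) and KO-2 (blue) to that of the WT mean, with grey bars for the range of the 4 WT libraries. KO-1 is above the grey bar for all 10 members, and KO-2 is above it for Myh7, Actc1, Tnnt2, Tnni3 and Dsg2 and below it for Myl4 and Ryr2.

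Levels of different genes were compared as normalised counts per kb of merged exons, a scale that understates genes whose cells use part of the exons, such as Ttn. In WT the mean levels per kb were 130 ± 102 for Myl7, 88.5 ± 42.5 for Actc1, 85.0 ± 6.49 for Ryr2, 78.1 ± 27.7 for Tnnt2, 62.5 ± 24.3 for Tnni3, 42.3 ± 12.6 for Myl4 and 41.0 ± 32.9 for Myh6 (SD, n = 4). Neighbours in this order of 7 genes differed by less than the larger SD of each pair. Myh7 (1.09 ± 0.48), Ttn (0.523 ± 0.430) and Dsg2 (0.0947 ± 0.189) were far lower. In KO-1 the order was led by Actc1 at 3678 per kb, Myl7 at 3137 and Myh6 at 1533, and Ryr2 stood in the seventh place at 108. In KO-2 it was led by Tnnt2 at 254.8, Actc1 at 167, Myl7 at 148 and Tnni3 at 128 per kb, and Myh7 at 22.5 stood above Myh6 at 16.8.

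The genes whose pattern was most like that of the members in KO-1 were taken as those with the highest ratio of the KO-1 normalised count to the highest of the other 5 libraries. Of 11468 genes with at least 100 normalised counts in KO-1, 74 had a ratio over 2 and 24 over 10. The members ranked as number 7 (Ttn), 11 (Actc1), 13 (Myh6), 22 (Myl7), 29 (Myl4), 38 (Tnni3), 63 (Tnnt2) and 944 (Ryr2), and Myh7 and Dsg2 had too few counts in KO-1 to be ranked. Ahead of them stood Ckmt2, the muscle mitochondrial creatine kinase, at 62.1-fold, and Mybpc3, the cardiac myosin-binding protein C, at 42.2-fold. Smpx followed at 40.7-fold, the calcium store protein Casq2 at 32.5-fold and the atrial potassium channel Kcnj3 at 29.4-fold. C130080G10Rik, Mypn, Myom2, Mybphl, Sln and Xirp2 were also among the leading genes. Of the 14 leading genes reported here, 11 are members or on the heart muscle lists. Members and lists were chosen with earlier results of these data known, and no share of all 11468 genes is given beside this count. The ranking is a description with no test, since 1 library defines it.

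The levels of the same 14 genes in the other libraries were low or 0. As a percent of the KO-1 level, their median was 2.11% in WT-1, 0% in WT-2, 0.532% in WT-3, 3.10% in WT-4 and 1.17% in KO-2. Mypn had 0 counts in all 4 WT libraries, and Smpx, Kcnj3, Myom2, Mybphl and Sln had 0 in KO-2. That all values are small follows from the rule that chose the genes. Myh6, itself 1 of these 14 genes, had the same order in WT, with 3.66%, 0.758%, 1.05% and 5.22% of its KO-1 level in WT-1 to WT-4. Among the members, WT-1 and WT-4 were the higher pair in WT for Myh6, Actc1, Myl4, Myl7, Ryr2 and Ttn. They were not for Tnnt2 (highest in WT-3), Tnni3 (WT-4 below WT-3) or Myh7 (lowest in WT-4). Tnnt2 and Tnni3 had larger WT shares, 8.47% to 19.1% and 7.54% to 16.2% of KO-1, and Ryr2 had 73.9% to 86.0%.

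**Figure D4:**
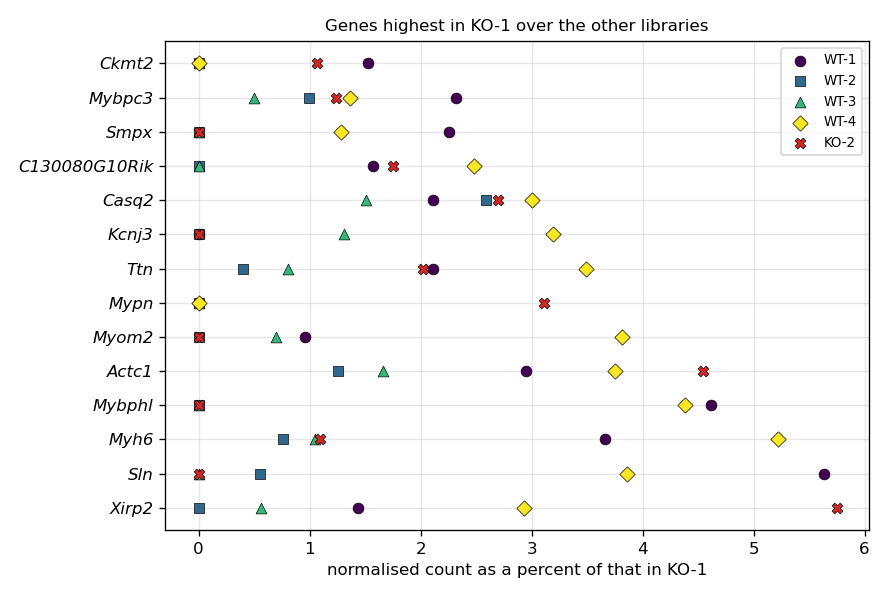
Normalised counts of the 14 genes highest in KO-1 over the other libraries, in the 4 WT libraries and KO-2, as a percent of the level in KO-1 (linear axis). The rule that chose the genes keeps all points low, and WT-4 and WT-1 lie right of WT-2 and WT-3 for Myh6, Actc1 and Ttn.

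Among 85 other genes of heart muscle on 7 lists, 33 (38.8%) were more than 2-fold above the highest WT library in KO-1. In KO-2, 14 (16.5%) were, with 11 in both. Over all genes tested the shares were 2.73% in KO-1 and 5.91% in KO-2, and none is given for both. DESeq2 called 16 of the 81 tested higher and 3 lower. Of all 17537 genes tested it called 605 higher and 358 lower (5.49%), which is the background for the lists that follow. For the sarcomere partners (21 genes) the median log2 fold change was 1.45 over both KO libraries, against 0.01 for all genes tested. Taken singly, the median log2 ratio to the WT mean was 2.26 in KO-1 and 0.12 in KO-2. Myl2, Tnnc1 (cardiac troponin C), Mybpc3, Xirp2 and Fhod3 (a formin of the sarcomere) were called higher. Tnnc1 had 16.7 to 30.8 normalised counts in WT, 351 in KO-1 and 66.4 in KO-2, close to the pattern of its partner Tnni3, and Mybpc3 had 4.99 to 23.1 in WT, 993 in KO-1 and 12.3 in KO-2. Tcap, which caps titin at the Z-disc, was called lower, from 8205 to 14105 in WT to 1349 in KO-1 and 4319 in KO-2. Other members of this list with high levels in smooth muscle did not pass, such as Myom1 (18819 to 23012 in WT, 16381 and 14274 in KO) and Tpm1 (19793 to 24346 in WT, 25528 and 29071 in KO).

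Of 16 genes of calcium handling and excitation, the median log2 fold change was 1.47 over both KO libraries, but the median log2 ratio to the WT mean was 2.16 in KO-1 and -0.39 in KO-2. DESeq2 called 3 higher, Pln, Casq2 and Trdn, which regulate the calcium pump or sit with Ryr2 on the store. Pln had 141 to 231 normalised counts in WT, 1346 in KO-1 and 299.9 in KO-2. Casq2 had 11.0 to 21.9 in WT, 729 in KO-1 and 19.7 in KO-2. Jph2, which ties the store to the cell membrane, was called lower, from 15441 to 21617 in WT to 8630 in KO-1 and 6130 in KO-2. The pump Atp2a2 (log2 fold change 0.09) and the channel Cacna1c (-0.46) did not pass.

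Genes enriched in the atria were set beside Myl4 and Myl7. The atrial hormone gene Nppa had 0 counts in WT-1 to WT-3, 21 in WT-4, 328 in KO-1 and 7 in KO-2. Sln, the sarcolipin of atrial muscle, had 25, 3, 0 and 18 counts in WT-1 to WT-4, 642 in KO-1 and 0 in KO-2. Kcnj3 had 0 to 7 in WT, 302 in KO-1 and 0 in KO-2. None of these 3 passed with both KO libraries (DESeq2 adjusted p-values 0.532, 0.421 and 0.393). Each was high in KO-1 and at or near the WT level in KO-2. Of the 10 tested genes on this list 1 was called, Tbx5, with 8.79 to 14.0 normalised counts in WT, 121 in KO-1 and 36.9 in KO-2. Bmp10 had 0 counts in all libraries. Gja5, Nr2f2 and Stard10, which vessel cells also express, did not pass.

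On the ventricular side Irx4 and Nppb had 0 counts in all 6 libraries, and Hey2, which smooth muscle also expresses, had 1772 to 2153 normalised counts in WT, 1850 in KO-1 and 2050 in KO-2. Of the 5 tested genes of this list Myl2 was called, with a log2 fold change of 10.07 (SE 3.45) and a DESeq2 adjusted p-value of 0.0389. By edgeR its adjusted p-value was 0.05002, outside the threshold, and the highest over the alternatives was 0.629. Hand1 went the other way, with 5 to 7 counts in WT and 0 in both KO libraries, and did not pass (DESeq2 adjusted p-value 0.0669). Of 13 tested heart transcription factors, Gata4, Tbx5 and Smyd1 were called higher. Gata4 had 25.1 to 70.9 normalised counts in WT, 124 in KO-1 and 189 in KO-2. Nkx2-5, which defines heart muscle cells, had 3 counts in WT-2, 13 in KO-1 and 0 in the other libraries. Gata6 (0.67) and Tbx20 (0.82) passed the adjusted p-value in the higher direction and Mef2d (-0.75) in the lower, all at under 2-fold. Srf (-0.19) and Prdm16 (-0.44) did not pass.

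Genes of muscle metabolism and stress included Mb (myoglobin), with 15.3 to 65.9 normalised counts in WT, 1808 in KO-1 and 381 in KO-2. With Cox7a1, Cox8b and Pgam2 it made 4 of 12 called higher. Cox8b and Cox7a1, subunits of cytochrome oxidase that brown fat also uses, were higher in KO-2 than in KO-1 (1238 against 120 and 501 against 159). The brown fat gene Ucp1 had 0 to 123 normalised counts in WT, 40.2 in KO-1 and 6861 in KO-2. Hspb7 was called lower, from 20808 to 26970 in WT to 6969 in KO-1 and 11215 in KO-2. Cryab (2507 to 2963 in WT, 2719 in KO-1 and 2157 in KO-2) did not pass. On the list of the intercalated disc Dsc2 alone was called. At under 2-fold, the cadherin Cdh2 (0.97) and Myzap (0.84) passed the adjusted p-value in the higher direction and Dsp, the desmoplakin of desmosomes, in the lower (-0.75). Gja1 had 3713 to 4827 normalised counts in WT, 5437 in KO-1 and 1811 in KO-2. Des had 2049 to 3105 in WT, 3130 in KO-1 and 3964 in KO-2. Neither Gja1 nor Des passed with both KO libraries.

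Skeletal muscle shares many sarcomere genes with the heart, so its own genes were checked. Myh1, Myh2, Myh3, Myh8, Pvalb and Mybpc1 had 0 counts in all libraries, and Myh4 and Tnni1 had 0 in both KO libraries. Of 11 tested genes, Myl1 was called higher (18.9 to 39.5 normalised counts in WT, 294 in KO-1 and 171 in KO-2) and Casq1 lower (2792 to 4339 in WT, 1129 and 643 in KO). In the smooth muscle list 0 of 11 genes were called by DESeq2, 0 by edgeR, and 5 had an unadjusted p-value under 0.05 in DESeq2. These went both ways, with log2 fold changes of 0.36 for Myh11, 0.40 for Tpm2, -0.41 for Tagln, -0.38 for Cnn1 and -0.30 for Smtn. No share of all genes at an unadjusted p-value is given here.

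Markers of other tissues moved with the libraries as well. As background for these calls, 605 of all 17537 genes tested were called higher. Red blood cell genes summed to 859 to 5990 normalised counts in WT, 11076 in KO-1 and 61684 in KO-2, with 4 of 4 tested called higher, and the white fat genes to 2547 to 4894, 5392 and 37810, with 3 of 6 called higher. Brown fat genes summed to 1169 to 1477, 3814 and 12469 (3 of 5 called higher), endothelial genes to 10549 to 20363, 29692 and 28711 (3 of 6) and macrophage genes to 7125 to 8504, 12701 and 13735 (3 of 6). In KO-1 most of the brown fat sum was Dio2 (3153, against 2359 in KO-2). The median log2 ratio of the brown fat list to the WT mean was 0.30 in KO-1 and 3.03 in KO-2. Of 6 fibroblast genes 0 were called by DESeq2 or edgeR. The adjusted p-value of DESeq2 alone was passed by 2, both higher, against 10.1% of all genes tested in either direction. An unadjusted DESeq2 p-value under 0.05 was found for 4, with no share of all genes to set beside it. KO-2 was the higher of the KO libraries for blood, fat and mesothelial sums, and KO-1 for the members, at 32505 against 4473, with 3118 to 4532 in WT. The part of the makeup of the tissue pieces in the members' differences was not tested.

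**Figure D5:**
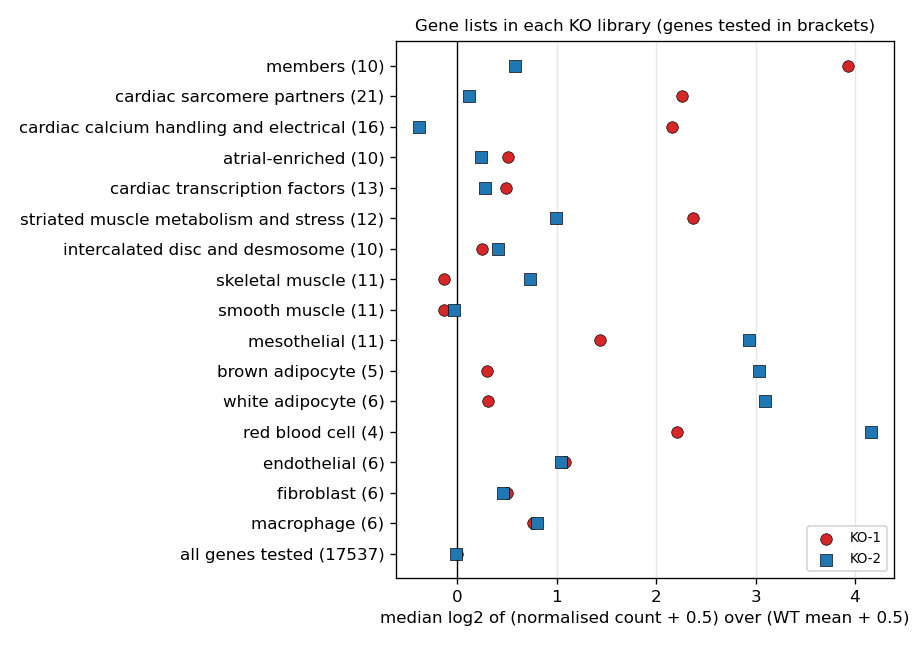
Median log2 ratio of the normalised count plus 0.5 to that of the WT mean over the tested genes of each list drawn (number in brackets), red for KO-1 and blue for KO-2. The ventricular list, with 5 tested genes, is not drawn, and its medians were 0.74 in KO-1 and 1.79 in KO-2. The members lie at 3.93 in KO-1 and 0.58 in KO-2, the smooth muscle list near 0 in both, and the fat, blood and mesothelial lists further right in KO-2.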

How the data were processed

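Estimated counts per gene were deposited as whole numbers by the authors, who trimmed reads with Trim Galore, aligned them to GRCm38 with HISAT2 and quantified them with StringTie on GENCODE M15, before testing with DESeq2. The strand setting and how estimates became whole numbers are not given in the sources used here. Column codes were mapped to groups, and 0 columns of values went unused. Of 52636 identifiers, 147 (0.0334% to 0.0522% of counts) had no GENCODE M21 name. DESeq2 1.42.0 (R 4.3.3) was run on the counts of all 6 libraries with default size factors, filtering and Benjamini-Hochberg adjustment over all genes tested, with calls at an adjusted p-value under 0.05 and over 2-fold. Ratios used a pseudocount of 0.5, floors 3 counts and intervals 95%. edgeR 4.0.16 (quasi-likelihood), other scalings and filters, left-out libraries and a replicate block were alternatives. Both tools were also run on simulated counts with the same spread for every gene. That setting does not cover members that differ strongly between the KO libraries. Members and lists were chosen with earlier results of these data known. Named genes were the members, fixed markers, genes called on a list and those with the 3 highest levels of a list. Those of the cell type lists other than heart muscle are mostly given by count. Of the 15 genes ranked highest in KO-1 over the other libraries, 1 is not reported here. Gata6, Tbx20, Cdh2, Myzap, Hand1, Tpm2, Cnn1 and Smtn were named after their values were seen.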

Additional observations from a re-analysis of the deposited data

Results flagged for a closer look

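Each of the 10 members was checked for a WT library that lay far from the other 3 WT libraries, where that gap filled nearly the whole spread of the group. This was found for 1 member. Dsg2 had 3.13 normalised counts in WT-4, from 3 counts, and 0 in WT-1, WT-2 and WT-3. With 3 of 4 libraries at 0 any count meets this rule, so its usual rate of about 1 in 20 by chance does not apply. Among the WT libraries, WT-4 had the highest normalised counts of Myh6, Actc1, Ryr2 and Ttn and the lowest of Myh7, WT-1 had the highest of Myh7, Tnni3, Myl4 and Myl7, and WT-3 that of Tnnt2. The 2 KO libraries are too few for the same check.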

How the results depend on the processing

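The number of members called, 7, was 3 when DESeq2 tested against a 2-fold change itself, and so was the number past the adjusted p-value alone. This stricter question set the highest adjusted p-values given above for Myh6, Actc1, Myl4, Myl7 and Ryr2. Of 85 other heart muscle genes 19 were called, and 5 under that test. In the main fit 5.49% of all genes tested were called, and the share under that test is not given here. With the replicate number as a block, 4 members were called and 4 passed the adjusted p-value. In that fit WT-3 and WT-4 were each alone in a block, so the contrast rested on WT-1, WT-2, KO-1 and KO-2. The correlation of deviations from the group means was -0.087 for KO-1 and WT-1 and 0.014 for KO-2 and WT-2. With 2 KO libraries their deviations mirror each other, so these values cannot show whether the numbers pair the libraries. Leaving out 1 library gave 2 to 7 members called, with 2 without KO-1 and 4 without WT-2, and 3 to 7 past the adjusted p-value, with 3 without KO-1 and 4 without WT-2. The log2 fold change changed sign without KO-1 for Myh6 (-1.28) and Myl4 (-0.99), and without KO-2 for Ryr2 (0.35). Over the fits without 1 library each, Myh6 ran from -1.28 to 5.23, Myl4 from -0.99 to 3.29 and Ryr2 from -0.84 to 0.35. Of the members' fold changes under the alternatives, 101 kept their direction and side of the threshold, 21 were no longer past it, 3 were newly past it and 3 changed sign. With TMM factors, total counts or the low-count filter, all 10 members kept both. The count of members over 2-fold above WT in KO-1 was 9 in every alternative. The cause was not tested. With 2 KO libraries that differ up to 90.8-fold in a member, a value over both describes neither. Counts of Dsg2, Myl3, Kcnj3 and Nppa in WT are too few to order the WT libraries.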
